A study of Mus musculus with 4 samples.

Results

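The interleukin-6 (IL-6) family genes were followed in mouse astrocyte-enriched cultures (AECs) with and without oxygen–glucose deprivation (OGD). The family was taken as the 10 genes whose symbols the array assigned to the ligands Il6, Il11, Lif, Clcf1, Cntf, Ctf1 and Osm and to the receptor chains Il6st, Lifr and Osmr. These are 10 of the 29676 gene names on the array, covered by 13 of its 39429 probes, and 12 probes of 9 genes were bright enough to be tested. AECs are primary cortical glial cultures of newborn ICR mice in which PLX3397, a blocker of the CSF1 receptor on which microglia depend, had been used to remove microglia, so the untreated group carried that depletion as well. Untreated cells (n = 2) were compared with cells kept for 15 h in glucose-free medium under hypoxia (n = 2). RNA of each culture was labeled with Cy3 and hybridized to its own single-color Agilent array.

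Cytokines of this family signal through receptor complexes that share the transmembrane chain gp130, the product of Il6st. IL-6 and IL-11 first bind their own α chains, whereas leukemia inhibitory factor (LIF), ciliary neurotrophic factor (CNTF) and cardiotrophin-1 bring gp130 together with the LIF receptor, and oncostatin M can pair it with its own receptor, OSMR. The complexes activate Janus kinases and the transcription factor STAT3, which induces the feedback inhibitor SOCS3. In astrocytes this route is known for its part in reactive gliosis.

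The comparison rested on 2 arrays per group, all on 1 slide and read in 1 scan. The arrays of OGD-treated cells were dimmer: the 75th percentile of the processed signal was 2135 and 2164 in untreated cells and 887 and 776 after OGD. Each probe was therefore expressed as normalized log2 signal, the log2 of its processed signal minus that of the array's 75th percentile, and a fold change states a change relative to the other transcripts. Scaling on the spiked-in control probes moved the median log2 fold change of all tested probes from 0.18 to −1.11. Where it turned the direction of a named gene or a median, its value is given as well. All 12 astrocyte marker genes were well above background on every array, and their summed linear signal relative to the 75th percentile was 187 and 167 in untreated cells and 257 and 266 after OGD, whereas the same sum in processed signal was 399040 and 361775 and then 228280 and 206192. Of these genes, 7 were higher and 2, Sox9 and Fgfr3, were lower relative to the 75th percentile, where 37.9% of all tested probes were higher and 27.1% lower (adjusted p under 0.05, limma). Under spike-in scaling 9 of the 12 were lower and 0 higher by the same test, also at an unadjusted p under 0.05, with a median log2 fold change of −0.62 (0.67 relative to the 75th percentile). The cultures also held RNA of other glia, and in such bulk samples fewer cells of a type cannot be told apart from less RNA per cell.

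Upstream sequence is shown for the 3 ligand genes with the largest fold changes, because transcription factors bind there. RefSeq start-site windows on GRCm38.p6 were given for 8 of the 10 family genes, with 10 windows in all. Clcf1 and Osm are the remaining members. The 250 bases before the start site of Il6 (chr5:30012864-30013113, + strand), of the inner start site of Il11 (chr7:4778142-4778391, − strand) and of Lif (chr11:4257318-4257567, + strand) are printed 5′ to 3′ with motif matches in capitals:
Il6: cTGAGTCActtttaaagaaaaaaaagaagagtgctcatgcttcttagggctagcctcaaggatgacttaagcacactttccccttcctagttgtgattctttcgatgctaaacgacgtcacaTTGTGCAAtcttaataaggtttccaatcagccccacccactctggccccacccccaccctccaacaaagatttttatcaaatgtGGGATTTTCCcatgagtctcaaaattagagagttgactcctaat
Il11: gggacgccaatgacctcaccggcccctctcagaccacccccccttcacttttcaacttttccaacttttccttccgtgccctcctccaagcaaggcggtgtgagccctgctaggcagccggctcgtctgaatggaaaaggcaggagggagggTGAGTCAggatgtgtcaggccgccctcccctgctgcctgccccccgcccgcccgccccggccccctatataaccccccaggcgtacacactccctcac
Lif: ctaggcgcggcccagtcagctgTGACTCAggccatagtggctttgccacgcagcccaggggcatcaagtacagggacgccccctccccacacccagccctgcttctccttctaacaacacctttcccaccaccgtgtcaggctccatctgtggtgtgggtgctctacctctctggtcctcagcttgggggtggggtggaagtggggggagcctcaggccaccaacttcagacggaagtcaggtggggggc
The outer Il11 window, not printed, held no match to any motif searched. In all 3 printed windows the capitals include the activator protein-1 (AP-1) motif TGANTCA, which is also present in the Cntf window and in 6.75% of all 32851 windows. In Il6 they also mark GGGATTTTCC, a match to the NF-κB motif (GGGA, any base, then TTTCC) that occurs in 0.356% of windows, and TTGTGCAA, the minus-strand match to the C/EBP motif TTGCNNAA found in 9.56%. The core motif of hypoxia-inducible factors, ACGTG, was not among the letters of any of the 10 windows and occurs in 16.6% of all. The cyclic AMP response element TGACGTCA (1.55% of windows), the STAT motif TTCNNNGAA (7.02%) and the C/EBP-ATF motif TGATGNAA (3.45%) had no match there either. Both strands of the 250 bases before each start site were searched, for the family and for the shares over all windows. The 50 bases after the start site, which the windows also hold, were not searched. A match is a description of the sequence only.

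Probes of 60 bases on this array detect the transcripts. Those of Il11 and Lif contain ATTTA, the core of the AU-rich elements through which many cytokine mRNAs are degraded, as shown in capitals in 30 bases of each probe:
Il11: tcttcctcacttcctacattATTTAttaaa
Lif: caaaggggcctttATTTAttATTTAaaact
The pentamer occurred once in the Il11 probe, which maps to chr7:4724847-4724906 (mm9, − strand), and 2 times in the Lif probe at chr11:4172032-4172091 (mm9, + strand). It was absent from the other 11 family probes and is present in 8.01% of all probes on the array.

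Among the 12 tested probes, 8 were higher and 2 were lower after OGD at an adjusted p under 0.05 (limma, Benjamini–Hochberg over all 28258 tested probes), where 37.9% of all tested probes were higher and 27.1% were lower. With a change of over 2-fold required as well, 4 were higher and 1 was lower, against backgrounds of 13.9% and 14.8%. Beyond 10-fold, the limit used in the methods of the study, 2 probes were higher against a background of 0.81% and none was lower against 0.524%. The median log2 fold change was 1.05 over the 7 ligand probes and 0.35 over the 5 receptor probes, compared with 0.18 over all tested probes. Under spike-in scaling these medians were −0.24, −0.94 and −1.11. Lifr makes up 3 of the 5 receptor probes. By the brightest probe of each gene, the medians were 2.01 for ligands and −0.53 for receptor chains, and 0.72 and −1.82 under spike-in scaling. Under spike-in scaling 3 probes were higher and 8 were lower, with backgrounds of 4.47% and 81.9%. There, 5 were lower beyond 2-fold and 1 beyond 10-fold, against 54.9% and 4.1%. With 2 arrays against 2, an exact two-sided permutation test of a single probe cannot go below p = 0.333, so the adjusted p-values lean on the spread shared over all probes.

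**Figure D1:**
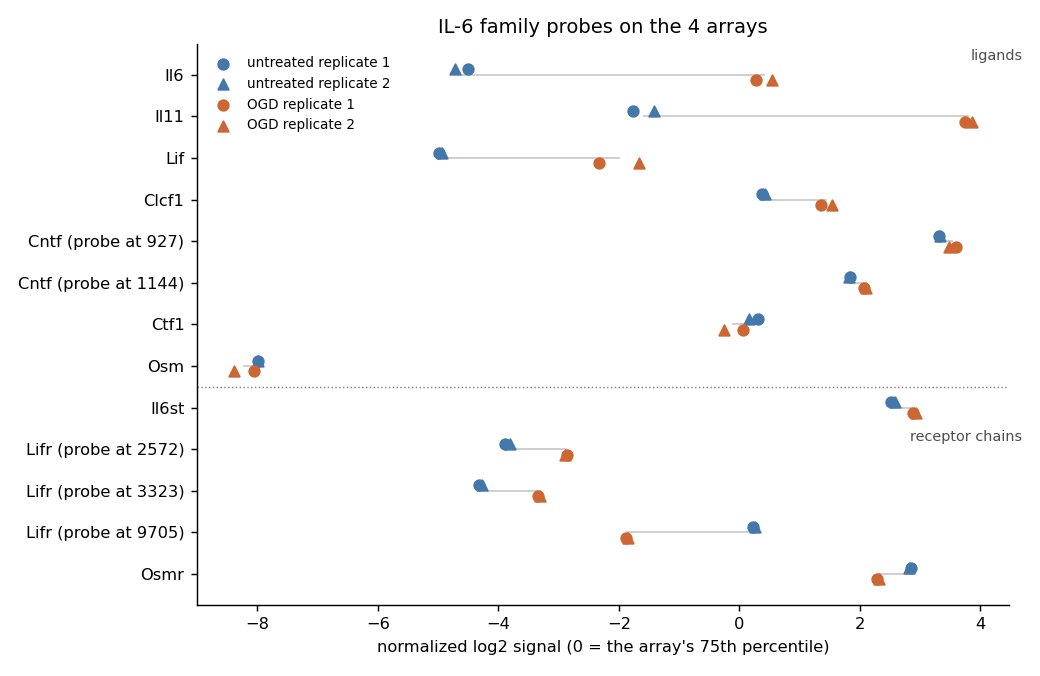
Normalized log2 signal of the 13 IL-6 family probes (vertical axis; a number gives the probe's first base in its transcript) on the 4 arrays, with circles for replicate 1, triangles for replicate 2 and a grey line between the group means. Il6, Il11 and Lif lay far to the right after OGD, whereas the Lifr probe at base 9705 and Osmr lay to the left of the untreated arrays; levels are to be compared within a probe only.

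Il11, which encodes a cytokine that acts on stromal and glial cells, had the largest increase in the family. Its processed signal was 628 and 815 in untreated cells and 11912 and 11254 after OGD, so both OGD arrays lay far above both untreated arrays. Normalized log2 signal averaged −1.59 ± 0.25 in untreated cells and 3.80 ± 0.08 after OGD (SD, n = 2). The log2 fold change was thus 5.39 (SE 0.15), or 41.9-fold, with a limma adjusted p of 0.000729. In the order of all 28258 tested probes from the largest increase downwards it stood at rank 39.

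Il6, encoding the cytokine that gives the family its name, was weak in untreated cells, at 94.2 and 81.8, and reached 1072 and 1129 after OGD. The groups did not overlap. Its log2 fold change was 5.02 (SE 0.15), which is 32.5-fold, and its limma adjusted p was 0.000729. It stood at rank 52. With normexp background correction the log2 fold change of Il6 was 4.27. The probe lies at chr5:30346367-30346426 (mm9, + strand).

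Lif, encoding the ligand of the gp130 and LIF receptor pair, was the next in size. Signals of 67.8 and 70.6 in untreated cells compared with 176 and 246 after OGD. The OGD replicates were farther apart than for Il6 or Il11, with an SD of 0.48 on the log2 scale, but both exceeded the untreated arrays. The log2 fold change was 2.96 (SE 0.25), or 7.79-fold (limma adjusted p = 0.00213, rank 336), and 2.35 with normexp background correction. Il6, Il11 and Lif were also the family probes that stayed higher under spike-in scaling, with log2 fold changes of 3.73, 4.10 and 1.67.

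Clcf1 encodes cardiotrophin-like cytokine factor 1, which signals through the CNTF receptor. Its probe lies at chr19:4222480-4222539 (mm9, + strand). The processed signal was 2755 and 2897 in untreated cells and 2274 and 2246 after OGD, that is, lower in unscaled signal on the dimmer arrays. Relative to the 75th percentile it rose 2.07-fold (log2 fold change 1.05, SE 0.10, limma adjusted p = 0.00254), and under spike-in scaling the direction turned, at −0.24 (adjusted p = 0.112).

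Cntf, a neurotrophic factor made by astrocytes, was bright throughout and changed little relative to the array. Its probe at base 927 (chr19:12838236-12838295, mm9, − strand) gave 21193 and 21885 against 10680 and 8631 and a log2 fold change of 0.21 (95% confidence interval −0.03 to 0.45, limma adjusted p = 0.101), which was −0.27 with quantile normalization and −1.08 under spike-in scaling. The probe at base 1144 (chr19:12838019-12838078, mm9, − strand) gave 7634 and 7621 against 3738 and 3323. Its log2 fold change of 0.26 was past the threshold (limma adjusted p = 0.0431) but turned to −1.03 under spike-in scaling, and the call held in 6 of 16 alternative settings. Both probes are also assigned by the array to the transcript of Gm44505, a noncoding readthrough of Zfp91 and Cntf, so the 2 transcripts cannot be told apart.

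Ctf1, encoding cardiotrophin-1, was probed at chr7:134861581-134861640 (mm9, + strand) in 10 spots per array and gave 2656 and 2416 in untreated cells and 927 and 649 after OGD. The log2 fold change was −0.33 (95% confidence interval −0.75 to 0.08, limma adjusted p = 0.120). It was past the threshold in 4 of 16 alternative settings, with −0.38 under normexp background correction (adjusted p = 0.0225) and −1.62 under spike-in scaling (0.000487, the lowest of the 16). With 1 array left out it ranged from −0.49 to −0.17. Osm, encoding oncostatin M, a cytokine of activated leukocytes, was not well above background on any array (probe at chr11:4140146-4140205, mm9, + strand), with signals of 8.43, 8.54, 3.35 and 2.32, and was not tested.

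**Figure D2:**
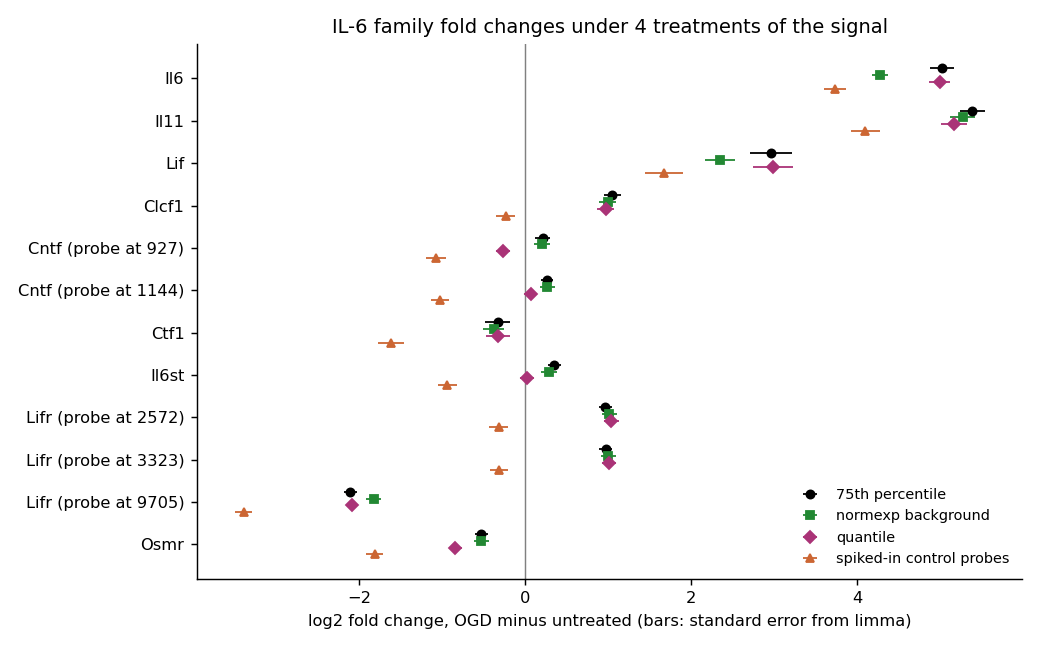
Log2 fold change, OGD minus untreated, of the 12 tested IL-6 family probes with the standard error from limma, for the 75th-percentile scaling, normexp background correction, quantile normalization and scaling on spiked-in control probes. Il6, Il11 and Lif lay to the right of 0 and the Lifr probe at base 9705 to the left under all 4, whereas Clcf1, Cntf, Il6st and the other Lifr probes crossed 0 under spike-in scaling.

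Relative to the 75th percentile, 3 of the 5 probes for receptor chains were higher and 2 lower (limma adjusted p under 0.05). By the brightest probe of each gene, 1 was higher and 2 were lower. Under spike-in scaling all 5 probes were lower by the same test, as were 81.9% of all tested probes. Il6st, which encodes the shared chain gp130 and was probed at chr13:113296586-113296645 (mm9, + strand), gave 12242 and 12996 in untreated cells and 6510 and 5897 after OGD. Its log2 fold change was 0.35 (SE 0.08, limma adjusted p = 0.0234), which was 0.02 with quantile normalization and −0.94 under spike-in scaling, and the call held in 8 of 16 alternative settings.

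Osmr, which encodes the oncostatin M receptor chain and was probed at chr15:6763686-6763745 (mm9, − strand), was 15428 and 15176 in untreated cells and 4314 and 3881 after OGD. It fell 1.44-fold relative to the array (log2 fold change −0.53, SE 0.08, limma adjusted p = 0.00690) and by more, −1.82, under spike-in scaling. Without untreated replicate 1 or untreated replicate 2 its limma adjusted p was 0.0736 and 0.0686.

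Lifr, encoding the LIF receptor, was measured by 3 probes that disagreed. The probe starting at base 9705 of NM_001358593 (chr15:7147319-7147378, mm9, + strand), the brightest of them, fell from 2502 and 2597 to 241 and 216, a log2 fold change of −2.11 (SE 0.08, 4.32-fold lower, limma adjusted p = 0.000752), and −3.40 under spike-in scaling. The probe at base 2572 of NM_001113386 (chr15:7135072-7135131) gave 145 and 155 against 122 and 105, and the probe at base 3323 of NM_013584 (chr15:7141150-7141209) gave 107 and 112 against 87.4 and 78.1. Relative to the 75th percentile both rose, with log2 fold changes of 0.97 and 0.97 and limma adjusted p-values of 0.00197 and 0.00183, but under spike-in scaling they were at −0.32 and −0.32.

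The disagreement did not depend on the scaling, because both probes were read on the same array. The log2 ratio of the probe at base 3323 over the probe at base 9705 was −4.55 and −4.54 in untreated cells and −1.47 and −1.46 after OGD, a difference of 3.08 or 8.45-fold (exact permutation p = 0.333, the smallest possible). The ratio of the probes at bases 2572 and 3323 was 0.44 and 0.47 in untreated cells and 0.48 and 0.42 after OGD, so the values of the 2 groups overlapped. The array lists both NM_013584 and NM_001358593 for the probes at bases 3323 and 9705, and NM_001113386 alone among curated RefSeq transcripts for the probe at base 2572. What set them apart was not tested.

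**Figure D3:**
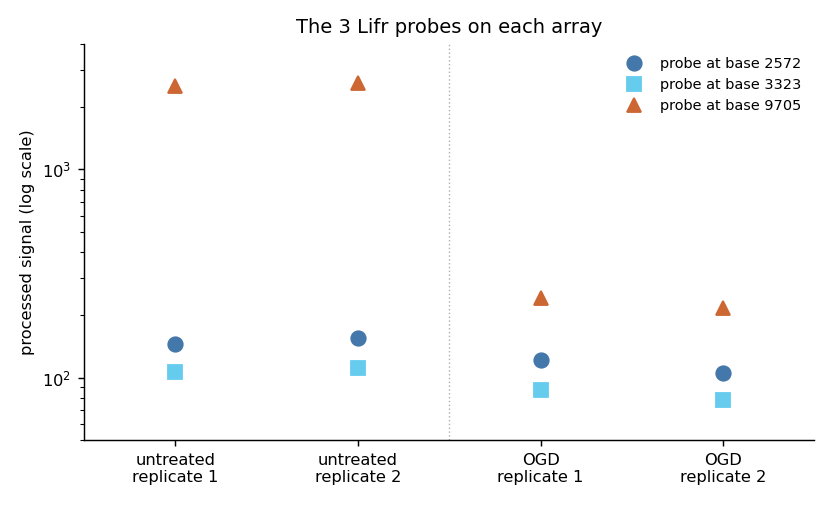
Processed signal (log scale) of the 3 Lifr probes on each of the 4 arrays, with the probe's first base in its own transcript given in the key. The probe at base 9705 dropped from 2502 and 2597 to 241 and 216, whereas the other 2 stayed between 78.1 and 155.

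By the distance between their normalized log2 signals over the 4 arrays, each centered on its untreated mean, the genes most like Il11 were Ankrd33b, Proser1, Hspa1a, Frat2 and Krtap1-5, at distances of 0.21 to 0.43. Those most like the Lifr probe at base 9705 were Frk, Napepld, Gdpgp1, Rnf41 and Lrch1, at 0.03 to 0.05. With 4 arrays in 2 groups, this likeness is mainly one of the size of the change.

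Of the 71 other genes listed for the pathway, counting a gene in 2 lists once, 67 were tested by their brightest probe. Il31 and Fgg were dim on every array, Saa3 was well above background on 1 array only, and Il11ra2 was not on the array. After OGD 30 were higher and 19 lower at an adjusted p under 0.05, where the shares over all tested probes were 37.9% and 27.1%. Beyond 2-fold 10 were higher and 9 lower, against 13.9% and 14.8%. Their median log2 fold change was 0.24 and was −1.04 under spike-in scaling, where 5 were higher and 57 lower against 4.47% and 81.9%. These counts were near the shares over all probes. Il31ra and Zc3h12a, both among the 19 lower, passed the filter through the untreated arrays only. The counts in each list below are to be read against the same 37.9% and 27.1%, and those under spike-in scaling against 4.47% and 81.9%. The list medians are to be read against 0.18 and, under spike-in scaling, −1.11.

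Among 11 tested receptor subunits and partners, 5 were higher and 2 lower, with a median log2 fold change of 0.24. Under spike-in scaling 0 were higher, also at an unadjusted p under 0.05, and 10 lower (limma), with a median of −1.04. Il6ra, which encodes the IL-6-binding α chain, fell from 4025 and 4314 to 1120 and 950, a log2 fold change of −0.64 (SE 0.08, limma adjusted p = 0.00494, and 0.0603 without untreated replicate 2). Il11ra1, encoding the α chain for IL-11, had a log2 fold change of −0.02 (limma adjusted p = 0.903) that was −1.31 under spike-in scaling. Cntfr, encoding the CNTF-binding chain, rose with a log2 fold change of 0.80 (limma adjusted p = 0.00506, and 0.0514 without untreated replicate 2), and Il27, encoding a subunit of the related interleukin-27, rose by 1.21, but under spike-in scaling they were at −0.49 and −0.08. Only Il27 exceeded 2-fold in this list. Il31ra is counted among the 2 lower genes, but it passed the filter through the untreated arrays only. Its signals were 18.9 and 16.9 in untreated cells and 4.41 and 4.95 after OGD. Its limma adjusted p of 0.0441 thus rests on OGD values that were not well measured. With normexp background correction the log2 fold change of Il31ra was 1.05.

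Among 16 signal transduction genes, 5 were higher and 6 lower, with a median of −0.25, whereas under spike-in scaling all 16 were lower. Stat3 rose with a log2 fold change of 0.78 (limma adjusted p = 0.00811) and Jak1, encoding the main kinase bound to gp130, with 0.66 (adjusted p = 0.00404, and 0.0547 without untreated replicate 2), both turning under spike-in scaling to −0.50 and −0.63. With quantile normalization Stat3 was at 0.24 and its call was lost (adjusted p = 0.176, the highest over its alternatives). Jak2 was at −0.32 (limma adjusted p = 0.0586). It was past the threshold with normexp background correction (−0.37, limma adjusted p = 0.0163), quantile normalization (−0.46, 0.0205) and spike-in scaling (−1.61, 0.000282). Tyk2, encoding another Janus kinase, fell by 1.82 on the log2 scale and was at −1.32 with normexp background correction. Sos1, encoding an activator of Ras, was at −1.69 (limma adjusted p = 0.000868) but at 0.04 with normexp.

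Feedback inhibitors had 1 gene higher and 5 lower of 9, with a median log2 fold change of −0.49. Under spike-in scaling all 9 were lower, as were 81.9% of all tested probes. Socs3, encoding the inhibitor that binds gp130 and the Janus kinases, fell from 13469 and 14316 to 1020 and 1163, so that the groups were far apart. Its log2 fold change was −2.30 (SE 0.16, 4.92-fold lower, limma adjusted p = 0.00147), and it remained negative in every alternative setting run for it, between −3.59 and −2.11. Ptpn1, encoding a tyrosine phosphatase acting on Janus kinases, fell by 1.73 on the log2 scale. The gene that rose was Ptpn2, at 0.97 by its brightest probe and at −0.32 under spike-in scaling. Its 3 probes ranged from 0.60 to 3.16, and it was named after its value was seen.

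STAT3 target genes had 14 genes higher and 5 lower of 22, with a median of 0.66, and under spike-in scaling the counts turned to 5 higher and 14 lower, with a median of −0.63. Pim1, encoding a survival kinase, rose from 54.3 and 76.0 to 1752 and 1972 (log2 fold change 6.23, SE 0.23, limma adjusted p = 0.000752). Myc and Cebpb, encoding transcription factors, rose with log2 fold changes of 3.52 and 2.81. Pim1, Myc and Cebpb remained higher under spike-in scaling, at 4.94, 2.23 and 1.52. Socs3 is in this list too, and Il4ra, encoding a cytokine receptor chain, fell by 1.03, a call that was lost with normexp (−0.29) and without either untreated array. All of these genes have other inducers besides STAT3, and STAT3 activity was not measured.

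Of 10 genes for factors that bind or degrade Il6 mRNA, 5 were higher and 2 lower, with a median of 0.32, and under spike-in scaling 9 were lower, with a median of −0.97. Hnrnpd, whose product binds AU-rich elements, rose by 1.23 on the log2 scale but was at −0.06 under spike-in scaling. Zc3h12a, encoding Regnase-1, an endonuclease that cleaves Il6 mRNA, gave 29.5 and 22.0 in untreated cells and 2.25 and 2.52 after OGD, where it was not well above background. With the OGD arrays set at their lowest signal of a probe well above background it was 1.48-fold lower. That floor is the dimmest such probe, so this value is no strict bound, and it was not itself tested. Zc3h12a is counted among the 2 lower genes, but it passed the filter through the untreated arrays only. Its limma adjusted p of 0.00328 thus rests on OGD values that were not well measured. With normexp background correction its log2 fold change was 0.83.

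**Figure D4:**
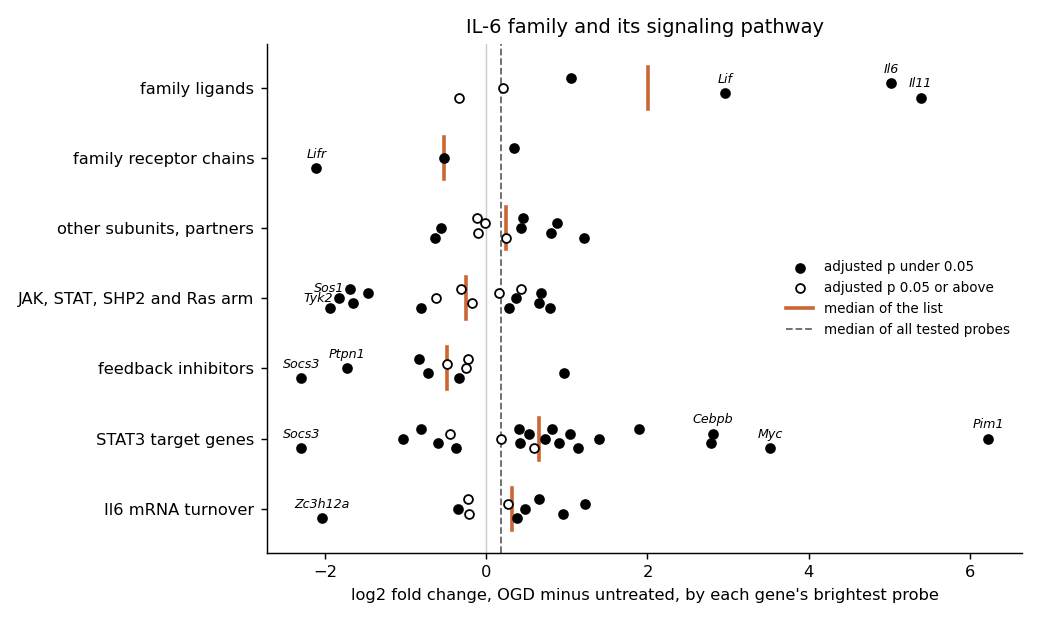
Log2 fold change, OGD minus untreated, for the genes of the IL-6 family and the 5 other pathway lists by each gene's brightest probe, with filled circles for adjusted p under 0.05, orange bars for list medians and a dashed line for the median of all tested probes, 0.18. Pim1 at 6.23, Il11 at 5.39 and Il6 at 5.02 lay farthest to the right, and Socs3 at −2.30 and Lifr at −2.11 farthest to the left.

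Other cell types moved with the groups as well. Of 10 microglial markers, 10 were well above background on both untreated arrays and 7 on both OGD arrays. Their summed signal relative to the 75th percentile was 5.36 and 4.98 in untreated cells and 11.8 and 11.5 after OGD, but in processed signal it was 11443 and 10769 and then 10446 and 8942. Relative to the 75th percentile 4 of these genes were higher and 2 lower, against 37.9% and 27.1% of all tested probes. Among those higher were Cd68 by 3.14, Csf1r by 1.14 and Aif1 by 1.03 on the log2 scale. The 2 lower were Trem2 (−0.93, well above background on 3 of the 4 arrays) and Tmem119 (−0.88). With normexp background correction both turned, Trem2 to 0.67 (limma adjusted p = 0.000356) and Tmem119 to 0.18 (0.104). There 8 of the 10 were higher, and no share over all probes was taken for that setting. Under spike-in scaling 1 was higher and 7 lower, against 4.47% and 81.9%. Csf1r and Aif1 were then at −0.15 and −0.26 and Cd68 at 1.85. Ptprc and Cx3cr1 lay between 2.79 and 13.8 in processed signal. The sum over 8 oligodendrocyte markers was 17.2 and 14.8 in untreated cells and 29.1 and 32.1 after OGD, but in processed signal 36650 and 32086 and then 25765 and 24905. That over 5 NG2 glia markers was 21.7 and 21.6 and then 14.9 and 13.5 relative to the 75th percentile. For meningeal fibroblasts the sum was 16.4 and 14.4 in untreated cells and 12.6 and 10.2 after OGD, with Col1a1 left out because its spot was an outlier on 1 OGD array. The sums over endothelial markers, with Cldn5 and Tek dim on every array, were 1.75 and 1.83 and then 1.47 and 1.34, and those over neuronal markers, with Slc17a7 dim on every array, were 5.86 and 5.49 and then 6.04 and 5.55. In processed signal, the sums of all 7 marker lists were lower on both OGD arrays than on either untreated array. The part of these cells in the changes of the IL-6 family was not tested.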

How the data were processed

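Total RNA of 2 untreated and 2 OGD-treated AEC wells was amplified from a fixed mass and labeled with Cy3. Per the study's methods, wells held cells of separate cultures, grown from different animals. The deposited values are the processed signal intensity of each spot, which the authors obtained with Agilent Feature Extraction (version 11.5.1.1 in the submitters' processing notes) by background subtraction and detrending within each array. The series table that the authors deposited holds the same intensities for 44397 spots.

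Outlier spots (119 to 132 per array) were left out, and no spot was saturated. Spots of a probe were averaged on the log2 scale after subtraction of the array's 75th percentile over noncontrol probes. A probe was kept if at least 0.5 of its spots were marked well above background on each array of untreated cells or on each array of OGD-treated cells, which left 28258. limma 3.58.1 (R 4.3.3; lmFit, eBayes) compared OGD with untreated, with Benjamini–Hochberg adjustment over all kept probes, and was tested on simulated data. A gene in a list was represented by its brightest tested probe. The members and lists were chosen with earlier results of these data known. All members were named; from the other lists, up to 3 genes with the largest increase and 3 with the largest decrease past an adjusted p of 0.05 and 2-fold were named, with Il6ra, Il11ra1, Cntfr, Jak1, Jak2, Stat3 and Socs3 in addition. Some genes that this rule covers are not reported here. For a gene dim on both OGD arrays, a fold change against a floor was taken. It set the untreated mean against the higher, on each OGD array, of the gene's own value and the lowest signal of a probe well above background. The number of arrays limits the precision. The alternatives tried were limma with trend and robust estimation, the methods' t-test, normexp background correction (offset 50), a block for replicate number, quantile, median and spike-in scaling (9 of 10 control probes), other filters, retained outlier spots, the series table, the mean over a gene's probes for the lists, and each array left out. Probe coordinates are mm9, per the file headers; promoters are from RefSeq on GRCm38.p6.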

Additional observations from a re-analysis of the deposited data

How the results depend on the processing

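Il6, Il11, Lif and the Lifr probe at base 9705 kept their direction and an adjusted p under 0.05 in all 16 alternative settings. Spike-in scaling changed the most. It gave 3 family probes higher (8 with the 75th percentile) and 8 lower (2), with 5 lower beyond 2-fold (1) and 1 lower beyond 10-fold (0), and 5 pathway genes higher (30) and 57 lower (19). It turned the log2 fold change of Clcf1 to −0.24, of the Cntf probes to −1.08 and −1.03, of Il6st to −0.94, of the Lifr probes at bases 2572 and 3323 to −0.32 and −0.32, of Il27 to −0.0816, Hnrnpd −0.0618, Cntfr −0.49, Jak1 −0.63 and Stat3 −0.50. The control probes differed between groups by −0.08 on the log2 scale, so this scaling left in place most of the difference of −1.37 that the 75th-percentile scaling removes. Quantile normalization turned the Cntf probe at base 927 to −0.27, and normexp turned Sos1 to 0.0419 and Zc3h12a to 0.83; the cause was not tested. With 1 array left out, 6 to 7 family probes were higher and 1 to 3 lower, and 15 to 31 pathway genes were higher and 9 to 20 lower. The lowest pathway counts, 15 and 9, came without untreated replicate 2, and without untreated replicate 1 they were 19 and 10. Il11ra1 ranged from −0.123 to 0.088 over these, at 0.088 without untreated replicate 1 and 0.0481 without OGD replicate 1. The methods' t-test gave 21 pathway genes higher and 11 lower, and averaging all tested probes of each gene gave 29 and 17. Without untreated replicate 2, Il6ra, Jak1 and Cntfr lost their calls (adjusted p = 0.0603, 0.0547 and 0.0514, each the highest over its alternatives). A lone array was assumed to vary like the other group.

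The labels number the replicates in each group and do not say whether samples of the same number belong together. Arrays of the same number did not deviate together (correlation −0.03). A shared origin with a small effect would not show in this value, so whether the samples are paired was left undecided. With the replicate number as a block, 6 family probes were higher and 2 lower, and 28 pathway genes were higher and 15 lower; Il6st (adjusted p = 0.0516; at most 0.874 over all alternatives) and the Cntf probe at base 1144 (0.0938; at most 0.513) lost their calls.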
